A study of Mus musculus with 6 samples.

Results

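The transcripts of 10 membrane transporters that move organic anions, bile salt conjugates, phospholipids and drugs through the hepatocyte were examined in mouse liver tumors with and without the nuclear receptor gene Nr2e3. The genes were Slco1a1, Slco1a4, Slco1b2 and Slco2b1, which encode uptake carriers, Abcb1a, Abcb4, Abcc2 and Abcg2, which encode pumps of the canalicular membrane, and Abcc3 and Abcc4, which encode pumps of the basolateral membrane. They were taken by symbol from a table of 24063 genes. All 10 had a row in the table and all 10 passed the filter on low counts that left 13572 genes for testing.

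Tumors of male C57BL/6 mice (labels; C57BL/6J in the methods for the WT mice) had been induced with diethylnitrosamine (DEN), a carcinogen that hepatocytes activate to a DNA-alkylating agent. Every mouse, control or knockout, had received DEN at 25 mg per kg by intraperitoneal injection at 15 days of age, and the tumors were taken at the 24-week time point. RNA-seq libraries came from 3 wild-type tumors (WT, labelled NR2E3+/+) and 3 knockout tumors (labelled NR2E3-/-, here Nr2e3-/-). The knockout is given as a whole-animal line, not one limited to the liver, and no liver without DEN was part of the comparison. Nr2e3 had 0 counts in all 6 libraries, WT included, so its own transcript could not be used to check the genotypes. The methods give 3 mice per genotype for these libraries, and the labels name no mouse for a library.

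Transport through the hepatocyte has a direction. Carriers of the organic anion transporting polypeptide family on the sinusoidal side take up bilirubin, bile acids, steroid conjugates, thyroid hormones and many drugs. ATP-binding cassette pumps on the canalicular side secrete conjugates, drugs and phosphatidylcholine into bile, and 2 related pumps on the basolateral side return conjugates to blood. Transcription of these genes is known to answer to the xenobiotic receptors CAR and PXR, to the oxidant sensor NRF2, to the Ah receptor and, in rodents, to the sex-specific pattern of growth hormone. Bulk tissue cannot tell fewer hepatocytes from less RNA per hepatocyte.

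The libraries held between 15376261 counts, in Nr2e3-/- replicate 1, and 28690279 counts, in WT replicate 2. The 10 transporters together took 0.314 to 0.365% of the counts in the WT libraries, and 0.319, 0.225 and 0.257% in Nr2e3-/- replicates 1, 2 and 3. Hepatocyte identity was present throughout: 6 of 7 hepatocyte markers had a row, and their normalized CPM (counts scaled to each library total after TMM adjustment) summed to 129946 to 159643 in WT and 116210 to 135479 in Nr2e3-/- tumors. No marker with a row was at 0 in any library. The 6 bile duct markers summed to 57.3 to 119 CPM in WT and to 69.1, 429 and 185 CPM in the Nr2e3-/- replicates, the 6 endothelial markers to 314 to 329 and 277 to 335 CPM, 7 of 8 immune markers to 164 to 206 and 154 to 343 CPM, the 6 stellate and fibroblast markers to 237 to 259 and 149 to 270 CPM, and the 5 liver tumor markers to 83.3 to 598 and 97.8 to 326 CPM. Most of the bile duct sum was Spp1, at 107, 46.0 and 47.1 CPM in WT and 56.3, 410 and 171 CPM in Nr2e3-/- tumors. Of the 5 bile duct markers tested, 3 had a log2 fold change above 0 and 2 below. H19 made up 447 of the 598 CPM of the tumor markers in WT replicate 2. Nr2e3-/- replicate 1 stood apart from the other Nr2e3-/- libraries: 10 acute phase genes summed to 9327 CPM in it, within the WT range of 6482 to 9460, against 22873 and 19572 CPM in Nr2e3-/- replicates 2 and 3. Most of the sum in replicate 1 was Fgb (5828 CPM) and Hp (2479 CPM). Gene by gene, 6 of the 10 were higher in every Nr2e3-/- library than in any WT library. Saa1, for example, was at 138 CPM in Nr2e3-/- replicate 1 and at 19.9 to 49.3 CPM in WT. Values of the transporters that rest on Nr2e3-/- replicate 1 are given with and without that library, and the counts of the other gene lists that it moves are given after those lists.

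The start regions of the genes differ in base composition and in the motifs they hold. RefSeq start windows (GRCm38.p6) were available for 9 of the 10 transporters, 14 windows in all, and the 250 bases before each start were searched on both strands. The first run shown belongs to the transporter with the lowest level per length, Abcc4, and the next ones to Slco1b2 and Slco1a1, which had the highest. The last is a stretch of Abcc2 around its only match. It lies before the RefSeq start, in a window that ends at chr19:43782307, but inside the Abcc2 span given below. That span comes from another annotation, GENCODE, and starts at 43782192. Capitals mark motif matches, and each run reads 5′ to 3′ in the direction of transcription.
Abcc4, chr14:118706220-118706469, minus strand: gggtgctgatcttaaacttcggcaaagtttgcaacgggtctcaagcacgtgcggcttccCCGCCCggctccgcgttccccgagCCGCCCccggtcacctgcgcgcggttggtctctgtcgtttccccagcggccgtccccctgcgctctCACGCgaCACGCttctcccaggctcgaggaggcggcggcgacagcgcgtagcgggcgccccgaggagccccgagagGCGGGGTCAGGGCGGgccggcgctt
Slco1b2, chr6:141629268-141629517, plus strand: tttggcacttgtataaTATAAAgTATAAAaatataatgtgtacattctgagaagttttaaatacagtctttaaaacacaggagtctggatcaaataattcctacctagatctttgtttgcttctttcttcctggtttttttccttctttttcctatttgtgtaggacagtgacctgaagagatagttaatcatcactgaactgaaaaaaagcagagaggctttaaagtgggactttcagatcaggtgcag
Slco1a1, chr6:141946963-141947212, minus strand: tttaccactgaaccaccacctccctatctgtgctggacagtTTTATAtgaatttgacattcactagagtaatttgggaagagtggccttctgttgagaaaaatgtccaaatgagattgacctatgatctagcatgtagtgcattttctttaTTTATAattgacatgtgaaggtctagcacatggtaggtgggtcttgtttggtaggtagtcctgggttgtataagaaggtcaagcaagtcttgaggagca
Abcc2, chr19:43782200-43782229, plus strand: ctcactgggaTGACATAGCattcatctagc
The Abcc4 window is 72.0% G and C, the Slco1b2 window 33.6% and the Slco1a1 window 40.4%, against a median of 52.4% over 32851 windows. In the Abcc4 window the capitals are 3 GC boxes (GGGCGG, bound by Sp1), 2 cores of the xenobiotic response element (GCGTG) and 1 antioxidant response element (TGACNNNGC). The antioxidant response element, the 2 cores and some of the GC boxes are read on the opposite strand. In Slco1b2 and Slco1a1 they are matches to the letters of the TATA box (TATAAA), 2 in each window, and in Abcc2 they are 1 antioxidant response element. The Slco1b2 matches begin 234 and 227 bases before the start. Those of Slco1a1 begin 209 and 99 bases before it and are read on the opposite strand. None of these matches overlapped a match to another motif.

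Counted by window, a GC box was found in 4 of the 14 windows of the transporters (those of Abcb4 and Abcc4 and 2 of Abcg2), against 32.7% of all windows, and the xenobiotic response core in 2 (Abcb4 and Abcc4), against 28.2%. The antioxidant response element occurred in 3 of the 14 (that of Abcc2 and both of Abcc4), against 10.2% of all windows, and the TATA box in 2 (Slco1a1 and Slco1b2), against 12.4%. The TCF core CTTTGA was found in 1 window, that of Abcb1a, against 13.8% of all windows, and the half-site AAGTCA of NR2E3 in 1, an internal start window of Abcc4, against 13.1%. The Abcb1a window, chr5:8566841-8567090, is not next to the gene span given below for Abcb1a, which starts at 8660077. A match describes letters in these windows and is not a measurement of binding.

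Divided by the length of all annotated exons, the transporters spanned a wide range of levels, in the same order in both genotypes. In normalized CPM per kb (mean ± SD, n = 3), the level of Slco1b2 was 249 ± 25.4 in WT and 229 ± 32.4 in Nr2e3-/- tumors, above 98.8% and 98.6% of the tested genes with a length. Slco1a1 followed at 73.6 ± 12.5 and 93.9 ± 22.4, Abcc2 at 72.7 ± 9.08 and 47.3 ± 12.5, and Abcc3 at 70.5 ± 2.28 and 42.5 ± 5.94 CPM per kb. These 3 could not be ordered in WT, where the libraries of each overlapped those of the next, while in Nr2e3-/- tumors all Slco1a1 libraries lay above all Abcc2 libraries.

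Abcb4 had levels of 31.3 ± 1.87 CPM per kb in WT and 27.3 ± 3.62 in Nr2e3-/- tumors, Slco2b1 of 20.96 ± 1.73 and 19.6 ± 7.49, Abcg2 of 10.9 ± 2.09 and 10.5 ± 1.67, and Slco1a4 of 7.31 ± 2.20 and 4.37 ± 2.91. The lowest 2 were Abcb1a, at 3.25 ± 1.11 in WT and 1.26 ± 0.465 in Nr2e3-/- tumors, and Abcc4, at 1.90 ± 0.408 and 0.891 ± 0.177 CPM per kb, and their libraries overlapped in both genotypes. Abcb1a lay above 50.3% of the tested genes in WT and 30.2% in Nr2e3-/- tumors, and Abcc4 above 37.7% and 24.7%. Neighbours also overlapped at Abcg2 and Slco1a4 in WT and at Abcc2 and Abcc3, and Abcb4 and Slco2b1, in Nr2e3-/- tumors. With the longest annotated transcript as the length, Abcb4 had 71.9 CPM per kb in WT and 62.7 in Nr2e3-/- tumors, which placed it behind only Slco1b2 and Slco1a1 there, and Abcc3 passed Abcc2 in WT.

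**Figure D1:**
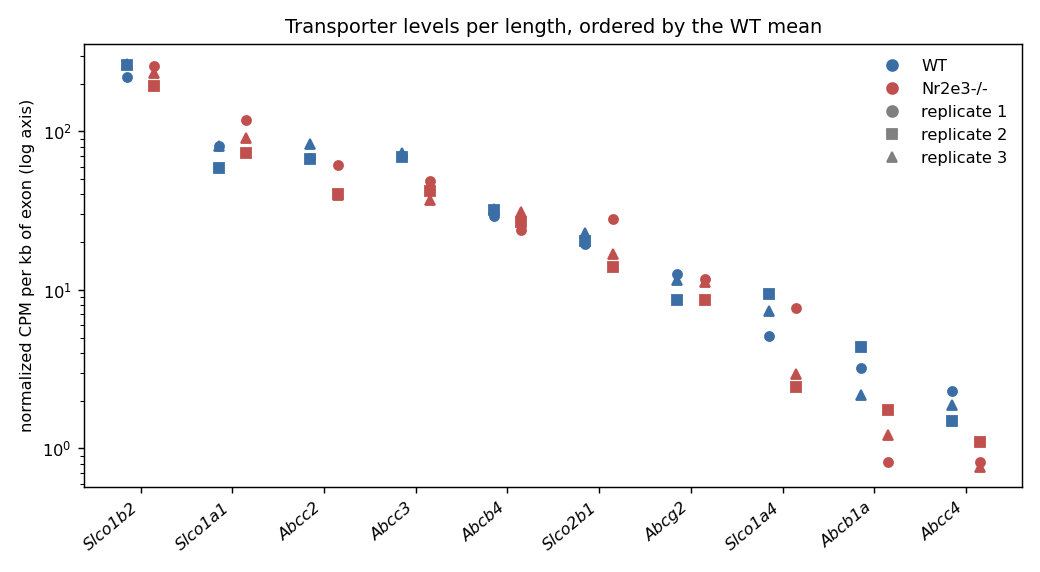
Normalized CPM per kb of exon (log axis) of the 10 transporters, ordered by the WT mean, with 1 point per library (blue WT, red Nr2e3-/-, marker shape for the replicate). Slco1b2 lies above all others in both genotypes, and the Abcb1a, Abcc2, Abcc3 and Abcc4 points of the Nr2e3-/- libraries lie below those of the WT libraries.

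The comparison of Nr2e3-/- with WT tumors asks which of these transcripts differed between the genotypes. Of the 10, 4 efflux pumps separated the genotypes and the other 6 genes, Abcb4 and Abcg2 among them, did not. Abcb1a, Abcc2, Abcc3 and Abcc4 were lower in every Nr2e3-/- library than in any WT library, by 1.54-fold to 2.55-fold. Whether pumps and uptake carriers differed from each other was not tested. The edgeR quasi-likelihood test gave none of the 10 transporters an adjusted p under 0.05, against 0.0958% of all genes tested (13 genes). At an unadjusted p under 0.05 it picked 4 of the 10, against 21.5% of all genes, and all 4 were lower in Nr2e3-/- tumors, against 9.72% of all genes called lower. Groups that did not overlap, lower in Nr2e3-/- tumors, were found for 4 of the 10 and for 12.9% of all genes. The fitted log2 fold change was below 0 for 9 of the 10 transporters and for 49.2% of all genes, with medians of -0.41 and 0.01. By role, an unadjusted p under 0.05 was reached by 0 of 4 uptake carriers (median log2 fold change -0.11), 2 of 4 canalicular pumps (median -0.41) and 2 of 2 basolateral pumps (median -0.91).

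The calls depended on the tool and on 1 library. DESeq2 gave 3 of the 10 an adjusted p under 0.05, all lower (Abcb1a, Abcc3 and Abcc4), against 3.07% of its genes called lower. limma-voom with sample quality weights gave 4 of the 10, all lower (Abcb1a, Abcc2, Abcc3 and Abcc4), against 7.91% of genes called lower. Its weights were 0.339 for Nr2e3-/- replicate 1 and 0.508 for replicate 2, against 1.26 to 1.69 for the other libraries. The 2 dependencies are therefore not separate. Without Nr2e3-/- replicate 1, edgeR gave 4 of the 10, all lower (Slco1a4, Abcc2, Abcc3 and Abcc4), against 9.65% of genes called lower. Leaving out any other single library gave 0 of the 10.

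**Figure D2:**
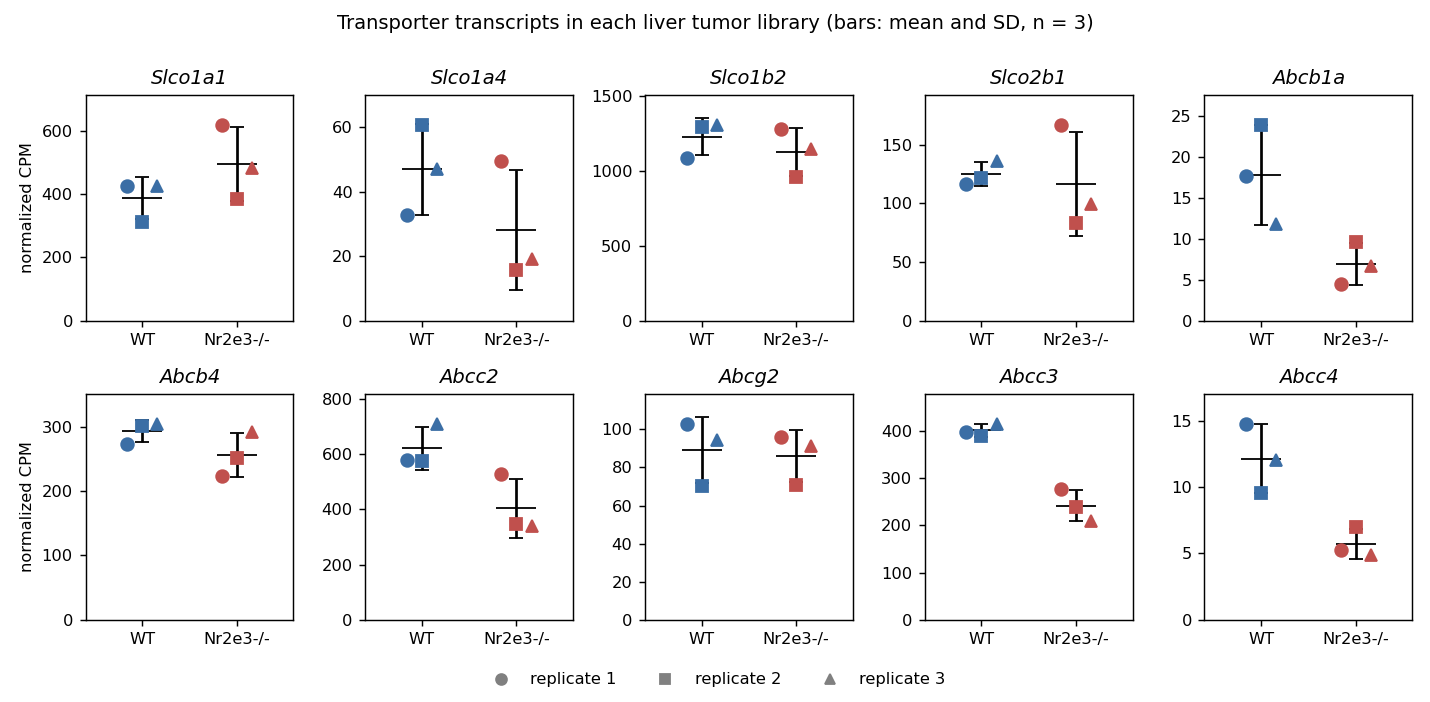
Normalized CPM of each transporter in each library, by genotype, with the group mean and SD (n = 3); every y axis starts at 0 and has its own scale. The Abcb1a, Abcc2, Abcc3 and Abcc4 points do not overlap between genotypes, while the Slco1a4 and Slco2b1 points of Nr2e3-/- replicate 1 (circles) lie above the WT mean.

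The uptake carriers come first. Slco1b2, on the plus strand of chromosome 6 (GRCm38 chr6:141629518-141686646), encodes the main liver carrier for bilirubin glucuronide and statins. Its level was 1084, 1292 and 1310 CPM in the WT libraries and 1277, 959 and 1146 CPM in the Nr2e3-/- libraries. The groups overlapped, and the log2 fold change was -0.12 ± 0.15 (SE), with a 95% interval of -0.49 to 0.24 (edgeR adjusted p = 0.657). Within that interval a moderate difference in either direction cannot be told from none.

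Slco1a1, on the minus strand of the same chromosome (chr6:141907282-141946962), is the carrier of sulfobromophthalein and steroid conjugates that is high in male mouse liver. It was the single transporter with a fold change above 0, at 427, 312 and 426 CPM in WT and 620, 385 and 481 CPM in Nr2e3-/- tumors. Nr2e3-/- replicate 2 lay below 2 WT libraries, and the log2 fold change of 0.35 ± 0.21 (95% interval -0.14 to 0.84) had an edgeR adjusted p of 0.359. Of 8 male-biased liver genes fixed as a list, 3 were higher at an unadjusted p under 0.05, against 11.8% of all genes called higher, and 0 lower (median log2 fold change 0.49), with Cyp7b1, an oxysterol hydroxylase, at 1.70 ± 0.28, C6, a complement component, at 0.78 ± 0.19, and Mup20, a major urinary protein, at 0.76. Of 8 female-biased genes 2 could be tested, and 1, the cytochrome Cyp2b9, was lower at an unadjusted p under 0.05, with a log2 fold change of -0.77 ± 0.23.

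Slco1a4, 51.1 kb from Slco1a1 with no protein-coding gene between them (chr6:141805440-141856199, minus strand), carries digoxin and bile acids and is a classical CAR and PXR target. It was measured at 32.6, 60.8 and 47.1 CPM in WT and at 49.5, 15.7 and 18.98 CPM in Nr2e3-/- tumors. Nr2e3-/- replicates 2 and 3 lay below every WT library, but replicate 1 lay above 2 of the 3. The log2 fold change was -0.75 ± 0.45 (95% interval -1.80 to 0.31, edgeR adjusted p = 0.361) with all libraries and -1.43 (adjusted p = 0.0148) without Nr2e3-/- replicate 1. That library also had an acute phase sum within the WT range. In it, 6 of the 10 acute phase genes still lay above every WT library. The part of the acute phase genes in the Slco1a4 result was not tested.

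Slco2b1 (chr7:99657804-99711340, minus strand), a carrier of sulfated steroids found in several organs, showed the same division within the Nr2e3-/- group. Its level was 117, 122 and 136 CPM in WT and 167, 83.1 and 99.8 CPM in Nr2e3-/- tumors. The log2 fold change of -0.10 ± 0.25 (95% interval -0.69 to 0.49, edgeR adjusted p = 0.836) came to -0.44 without Nr2e3-/- replicate 1 (adjusted p = 0.0501) and to 0.10 without Nr2e3-/- replicate 2. Exons of Slco2b1 overlap the annotated genes Gm15635 and Gm34280, so that some of its reads may not have been assignable.

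The ratio of Slco1a4 to Slco1a1 within each library, which no scaling between libraries can change, was -3.71, -2.36 and -3.18 in WT and -3.65, -4.62 and -4.66 in Nr2e3-/- tumors on the log2 scale of counts. Nr2e3-/- replicates 2 and 3 again lay below all WT libraries and replicate 1 among them. Other family members looked up in this cluster that had a row were close to silent: Slco1c1 had 0 to 8 counts per library, Slco1a6 0 to 2 and Slco1a5 0 to 1, and none entered the test. Gm5724, a protein-coding gene between Slco1b2 and Slco1a4, had no row by that symbol and was not measured.

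Of the canalicular pumps, Abcc2 (chr19:43782192-43840740, plus strand) exports bilirubin glucuronides and glutathione conjugates into bile. It was measured at 578, 574 and 710 CPM in WT and at 527, 346 and 338 CPM in Nr2e3-/- tumors. All Nr2e3-/- libraries lay below all WT libraries, but replicate 1 only just. The log2 fold change was -0.62 ± 0.20, 1.54-fold lower (95% interval -1.10 to -0.15, unadjusted p = 0.0175, edgeR adjusted p = 0.161), and -0.85 without Nr2e3-/- replicate 1 (adjusted p = 0.0110). The unadjusted p stayed under 0.05 when 4 of the 6 libraries were left out in turn and reached 0.0677 at most.

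Abcb1a (chr5:8660077-8748575, plus strand) encodes one of the mouse P-glycoproteins, pumps for lipophilic drugs. It had the largest difference of the 10, with 17.7, 23.99 and 11.8 CPM in WT and 4.50, 9.58 and 6.71 CPM in Nr2e3-/- tumors. The lowest value rested on 68 counts, which put the 95% Poisson interval for counting error at 3.50 to 5.71 CPM. The log2 fold change was -1.35 ± 0.34, 2.55-fold lower (95% interval -2.14 to -0.55, unadjusted p = 0.00500, edgeR adjusted p = 0.117), and it lay between -1.66 and -1.08 when each library was left out. The adjusted p was 0.00444 with DESeq2 and 0.0448 with limma-voom.

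Abcb1a has a close copy, Abcb1b, the other mouse P-glycoprotein gene, which lies between Abcb1a and Abcb4. Abcb1b differed in the other direction, and its level was 2.19, 1.59 and 1.46 CPM in WT and 2.52, 7.13 and 4.87 CPM in Nr2e3-/- tumors, with a log2 fold change of 1.49 ± 0.39 (95% interval 0.57 to 2.40, edgeR adjusted p = 0.124). The log2 ratio of Abcb1a to Abcb1b counts was 3.01, 3.92 and 3.02 in WT and 0.84, 0.43 and 0.46 in Nr2e3-/- tumors, so that the genotypes did not overlap. Abcb1b and this ratio were chosen after the values were seen. The sum of both genes was 19.9, 25.6 and 13.3 CPM in WT and 7.02, 16.7 and 11.6 CPM in Nr2e3-/- tumors, and here the genotypes did overlap. Of all 50-base stretches in Abcb1a transcripts 17.6% also occur in another gene, 16.3% in Abcb1b, and an exon of Abcb1a overlaps the annotated gene Gm42686, so its counts are less certain than those of the other pumps.

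Abcb4 (chr5:8893717-8959231, plus strand), 145 kb from Abcb1a, flips phosphatidylcholine into bile. Its level was 273, 302 and 305 CPM in WT and 224, 251 and 292 CPM in Nr2e3-/- tumors. Nr2e3-/- replicate 3 lay above WT replicate 1, and the log2 fold change was -0.20 ± 0.13 (95% interval -0.50 to 0.11, edgeR adjusted p = 0.403). The log2 ratio of Abcb1a to Abcb4 counts was -3.95, -3.65 and -4.69 in WT and -5.64, -4.71 and -5.44 in Nr2e3-/- tumors, which separated the genotypes by a narrow margin.

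Abcg2 (chr6:58584523-58695676, plus strand), the breast cancer resistance protein, exports urate, sulfate conjugates and porphyrins. It was at 103, 70.1 and 94.4 CPM in WT and 96.1, 70.5 and 91.3 CPM in Nr2e3-/- tumors. The ranges nearly coincided, with a log2 fold change of -0.05 ± 0.18 and a 95% interval of -0.48 to 0.37 (edgeR adjusted p = 0.882).

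The basolateral pumps gave the smallest p-values. Abcc3 (chr11:94343295-94392997, minus strand) returns glucuronides to blood. It was measured at 398, 391 and 416 CPM in WT and at 278, 239 and 210 CPM in Nr2e3-/- tumors, and the gap between the groups was wider than the range within either. The log2 fold change was -0.73 ± 0.13, 1.66-fold lower (95% interval -1.04 to -0.42, unadjusted p = 0.000761, edgeR adjusted p = 0.0930), and its rank by p was 107 of the 13572 genes. Leaving out each library moved it from -0.83 to -0.63.

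Abcc4 (chr14:118482692-118706219, minus strand) exports cyclic nucleotides, prostaglandins and, with glutathione, bile acids. It was measured at 14.8, 9.57 and 12.1 CPM in WT and at 5.23, 6.98 and 4.87 CPM in Nr2e3-/- tumors, from 79 to 385 counts per library. The log2 fold change was -1.08 ± 0.22, 2.12-fold lower (95% interval -1.60 to -0.57, unadjusted p = 0.00157, edgeR adjusted p = 0.0963), with a range of -1.26 to -0.92 when each library was left out. DESeq2 gave an adjusted p of 9.71e-05 for Abcc3 and 0.00149 for Abcc4. The exact permutation test over the 6 libraries gave 0.1 for each of Abcb1a, Abcc2, Abcc3 and Abcc4, which is the smallest p that 3 against 3 allows.

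Ratios between pumps of the ABCC family were also taken within each library. The log2 ratio of Abcc3 to Abcc2 counts was -0.54, -0.55 and -0.77 in WT and -0.92, -0.53 and -0.68 in Nr2e3-/- tumors. That of Abcc4 to Abcc2 was -5.29, -5.91 and -5.88 in WT and -6.65, -5.63 and -6.12 in Nr2e3-/- tumors. Both ratios overlapped between the genotypes.

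**Figure D3:**
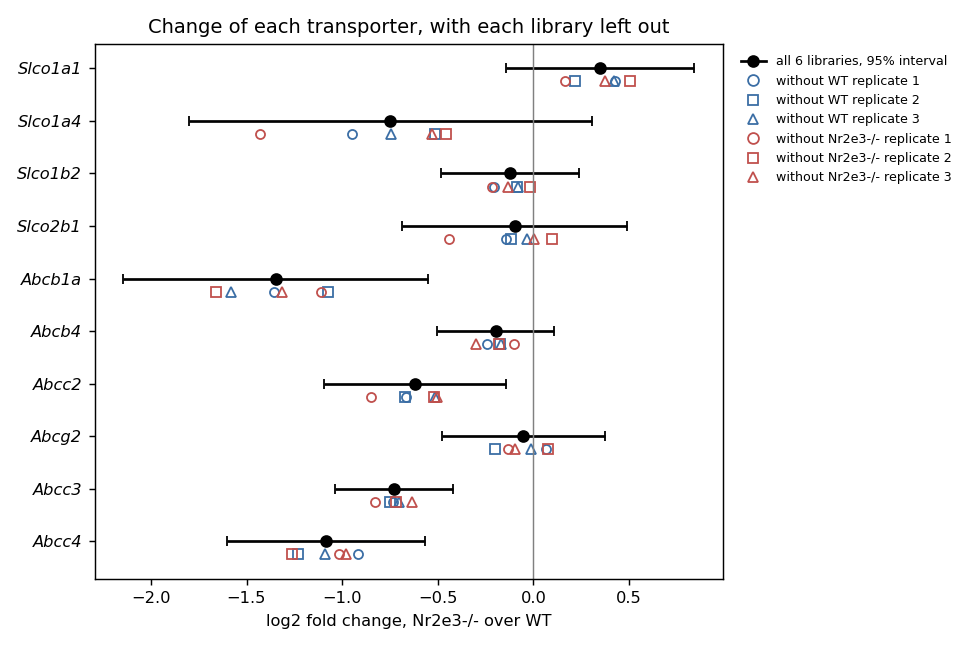
Log2 fold change of each transporter, Nr2e3-/- over WT, with its 95% interval from the edgeR fit of all 6 libraries (black) and the value with each library left out (open markers). The intervals of Abcb1a, Abcc2, Abcc3 and Abcc4 lie below 0. Of the values with a library left out, those of Slco1a1, Slco1a4, Slco1b2, Slco2b1, Abcc2 and Abcc3 are lowest without Nr2e3-/- replicate 1 (red circles).

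Other transporters of the hepatocyte were counted from lists. No gene of any list had an edgeR adjusted p under 0.05, and the counts below use an unadjusted p under 0.05, which 21.5% of all genes reached. Of 12 other uptake carriers 10 were tested, and 2 were higher and 2 lower (median log2 fold change 0.11). Slc22a7, the organic anion transporter OAT2, was at 14.8, 12.1 and 11.9 CPM in WT and 24.7, 31.6 and 27.3 CPM in Nr2e3-/- tumors, without overlap. Its log2 fold change was 1.11 ± 0.15 (unadjusted p = 0.000116, edgeR adjusted p = 0.0757). Slco3a1, a prostaglandin carrier, was at 0.68 ± 0.20, and Slco2a1, which clears prostaglandins, at -0.29 ± 0.11. Slc10a1, the sodium-dependent bile acid carrier, had a log2 fold change of 0.02 (95% interval -0.46 to 0.50) and is named here as the best known carrier of the list.

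Of 15 other efflux transporters and flippases 14 were tested, and 2 were higher and 5 lower (median log2 fold change -0.19). Abcg5 and Abcg8, which together form the sterol pump of the canalicular membrane, were both lower. Abcg8 was at 153, 152 and 191 CPM in WT and 110, 81.6 and 71.6 CPM in Nr2e3-/- tumors, and its log2 fold change was -0.91 ± 0.18 (edgeR adjusted p = 0.0936). Abcg5 was at 124, 142 and 144 CPM in WT and 89.2, 96.0 and 68.7 CPM in Nr2e3-/- tumors, a log2 difference of -0.69 ± 0.15 (edgeR adjusted p = 0.0997). Neither overlapped between the genotypes. Abcc10, another pump of the ABCC family, was at -0.83 ± 0.19 (adjusted p = 0.109), and Abcb11, the bile salt export pump, was at 0.23 ± 0.14 with a 95% interval of -0.10 to 0.56, named here because it shares the canalicular membrane with Abcc2. Of 5 scaffold proteins that hold transporters in the membrane, none passed in either direction (median -0.18).

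**Figure D4:**
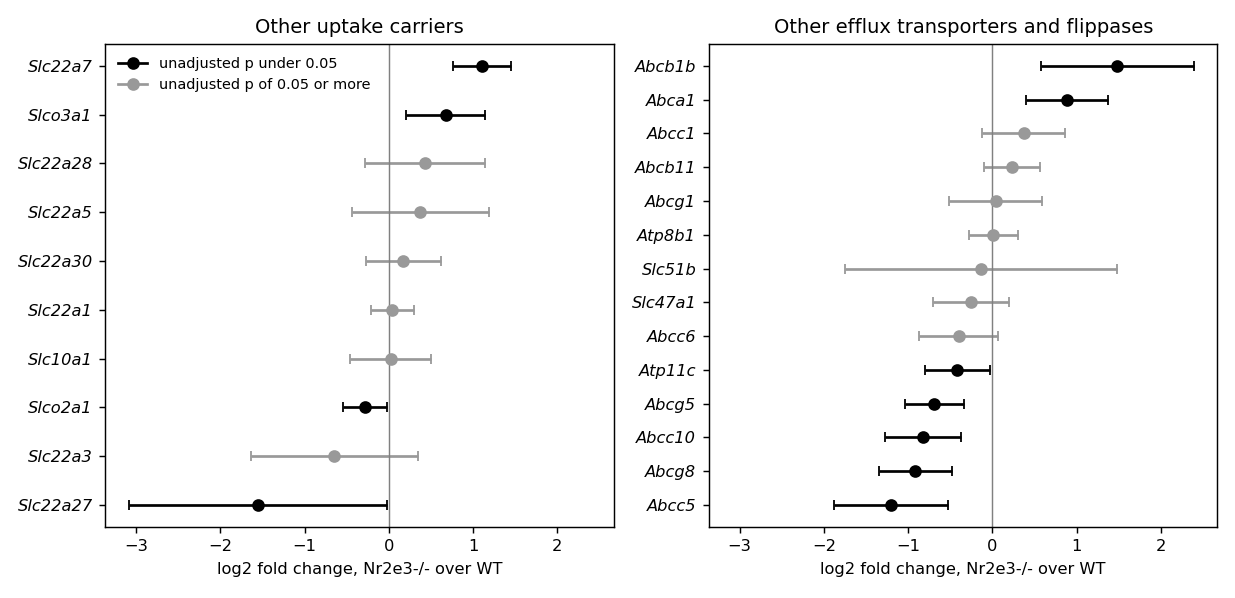
Log2 fold change, Nr2e3-/- over WT, with 95% interval from the edgeR fit, for 10 other uptake carriers (left) and 14 other efflux transporters and flippases (right); black marks an unadjusted p under 0.05. Slc22a7 and Abcb1b lie highest in their panels, and Abcg5, Abcg8 and Abcc10 lie below 0.

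The receptors and sensors that are known to drive these transporters were counted in the same way. Of 16 tested, 5 were higher and 1 lower (median log2 fold change 0.06). Ahr, the Ah receptor, was at 39.5, 46.5 and 45.7 CPM in WT and 64.2, 149 and 132 CPM in Nr2e3-/- tumors (log2 fold change 1.39 ± 0.29, edgeR adjusted p = 0.0984). Esr1, the estrogen receptor, had a log2 fold change of 0.73 ± 0.14. Nr1i3, which encodes CAR, was at 65.2, 141 and 93.0 CPM in WT and 77.3, 31.1 and 59.6 CPM in Nr2e3-/- tumors (log2 fold change -0.84 ± 0.38, unadjusted p = 0.0632, edgeR adjusted p = 0.255). Nr1i2, which encodes PXR, was at 64.3, 78.0 and 75.2 CPM in WT and 73.6, 33.1 and 42.1 CPM in Nr2e3-/- tumors (unadjusted p = 0.0889, edgeR adjusted p = 0.293). WT replicate 2 was the highest and Nr2e3-/- replicates 3 and 2 the lowest for Nr1i3, Nr1i2 and Slco1a4 alike. Nr1i3 and Nr1i2 were named after their values were seen, and the part of either receptor in the level of Slco1a4 was not tested.

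The target genes of these sensors gave mixed counts. Of 8 CAR and PXR target enzymes 1 was higher and 1 lower (median log2 fold change 0.00). Alas1, the first enzyme of heme synthesis, was at -0.57 ± 0.20 and Cyp3a13 at 0.23 ± 0.10. Of 8 NRF2 target enzymes 2 were higher and 0 lower (median 0.61): Srxn1, which repairs peroxiredoxins, was at 93.8, 80.2 and 53.6 CPM in WT and 78.3, 826 and 647 CPM in Nr2e3-/- tumors, and Txnrd1, thioredoxin reductase, at 188, 173 and 186 CPM and 188, 455 and 402 CPM. In both genes Nr2e3-/- replicate 1 lay among the WT libraries. Of 6 Ah receptor targets 5 were tested, with 0 higher and 1 lower (median -0.12), the lower gene being Nfe2l2, which encodes NRF2 itself (-0.47 ± 0.16). Nfe2l2 is also the 1 lower gene among the receptors and sensors, so both counts hold the same gene. Of 10 acute phase genes 8 were higher and 0 lower (median 1.40), and the 3 with the smallest p were Saa1 at 4.54 ± 0.80 and Saa2 at 5.34 ± 0.97, serum amyloid genes, and Crp, C-reactive protein, at 0.91 ± 0.18.

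These counts moved with single libraries, as did the share of all genes at an unadjusted p under 0.05, which was 15.6, 13 and 13% without WT replicates 1, 2 and 3 and 37.7, 19 and 12.2% without Nr2e3-/- replicates 1, 2 and 3. Without Nr2e3-/- replicate 1 the count in either direction was 5 of the NRF2 targets in place of 2, 3 of the Ah receptor targets in place of 1, 2 of the scaffolds in place of 0 and 1 of the CAR and PXR targets in place of 2. In that fit the receptors and sensors came to 9 in place of 6 and the other efflux transporters to 9 in place of 7. The acute phase genes came there to 9 in place of 8, and the male-biased genes to 2 in place of 3. At an adjusted p under 0.05 the same fit called 9 of the other efflux transporters, 4 of the other uptake carriers, 4 of the receptors and sensors, 5 NRF2 targets, 1 Ah receptor target, 1 scaffold, 2 male-biased genes and 9 acute phase genes. These counts stand against 3022 of all 13840 genes tested in that fit, in either direction. The receptors and sensors came to 2 in place of 6 without Nr2e3-/- replicate 3 and to 3 without WT replicate 3, and the other uptake carriers to 2 in place of 4 without Nr2e3-/- replicate 3 or WT replicate 2. The NRF2 targets came to 1 without WT replicate 2, and the Ah receptor targets to 0 without WT replicate 2 or Nr2e3-/- replicate 3 and to 2 without Nr2e3-/- replicate 2. The CAR and PXR targets came to 0 without WT replicate 1 or 2 and to 1 without WT replicate 3, and the female-biased genes to 2 in place of 1 without WT replicate 3.

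Smurf1, Rsad1, Wee1 and Cd300lg were among the genes whose profile over the 6 libraries was most like that of Abcc3, out of 13571 genes compared. The measure was the root mean square difference of log2 CPM after centring each gene, and it ran from 0.071 for Smurf1 to 0.079 for Cd300lg. Smurf1, a ubiquitin ligase, was at 29.99, 26.7 and 32.1 CPM in WT and 19.8, 17.6 and 16.6 CPM in Nr2e3-/- tumors. For Abcb1a the nearest were 4931408D14Rik, Panx1, H2-Q2, Tmem86a and Tmem191c, at 0.094 to 0.172, so that these profiles lay farther away than those named for Abcc3. Panx1, H2-Q2 and Tmem191c had few counts, with 7, 4 and 5 in Nr2e3-/- replicate 1, so their profiles are uncertain.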

How the data were processed

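RNA was extracted from liver tumors of 3 WT and 3 Nr2e3-/- mice, as the methods give it, and sequenced as single-end TruSeq RNA libraries. The authors deposited raw counts per gene, and the submitters' processing notes name TopHat, Bowtie2, SAMtools, featureCounts and DESeq with the build mm10 (hg38 is also listed). The counting options and strand setting are not given in the sources used here. A deposited table of the authors' own fold changes and p-values and a normalized table were not used. Columns were matched to samples by name.

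The counts were analysed with edgeR 4.0.16 (TMM factors, filterByExpr with a minimum count of 10 and minimum total of 15, quasi-likelihood F test, genotype only, two-sided), with Benjamini-Hochberg adjustment over 13572 genes. CPM were scaled by TMM. DESeq2 1.42.0 and limma 3.58.1 (voom with sample quality weights), 2 other normalizations, 2 other filters, a replicate block and leaving out each library were alternatives. Exon lengths and loci came from GENCODE M21 (GRCm38, the assembly of mm10), and start windows from RefSeq. Intervals from Poisson counts cover counting error only. Library totals ran from 15376261 to 28690279 counts.

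The 10 transporters and all lists were chosen with earlier results of these data known. Named genes were the 10 transporters, up to 3 genes per list with the smallest unadjusted p under 0.05, and the 5 genes of nearest profile to the transporters with the smallest p and the largest fold change; other genes named are marked as such where they appear, and some results under this rule are not reported here. The code was tested on simulated data. Replicates of a genotype differed by more than sampling noise, so no library was counted as a duplicate.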

Additional observations from a re-analysis of the deposited data

How the results depend on the processing

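Abcb1a, Abcc3 and Abcc4 kept an unadjusted p under 0.05 and a lower value in Nr2e3-/- tumors under all 13 alternatives, and Abcc2 under 11 of 13. The number of the 10 transporters with an adjusted p under 0.05 was 0 with all 6 libraries in edgeR, 3 with DESeq2 and 4 with limma-voom, and 0 to 4 when each library was left out, the 4 being without Nr2e3-/- replicate 1. The other lists (transporters, regulators, targets, scaffolds, male-biased, female-biased and acute phase genes) hold 95 distinct genes, not all of which were tested. Among them the number was 0 in edgeR, 4 with no filter beyond 1 count, 21 with DESeq2 and 30 with limma-voom. It was 0 to 35 when each library was left out, the 35 again being without Nr2e3-/- replicate 1. Over all genes edgeR called 13 of 13572, 70 of 18815 with no filter and 3022 of 13840 once Nr2e3-/- replicate 1 was left out. DESeq2 called 1096 of 13701 genes and limma-voom 2360 of 13572. The cause of these differences was not tested.

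The number of transporters with an unadjusted p under 0.05 ran from 3 to 6, and the number with a lower value from 7 to 9. The direction of 2 of them turned: over the 6 fits with a library left out, Abcg2 ran from -0.20 to 0.075 (0.068 without WT replicate 1, 0.075 without Nr2e3-/- replicate 2) and Slco2b1 from -0.44 to 0.098 (0.098 without Nr2e3-/- replicate 2, 0.0055 without Nr2e3-/- replicate 3). With the longest transcript as length, 12 of 20 levels per kb moved by more than 1 SD.

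Replicate numbers are shared between the genotypes. The correlations of same-numbered deviations were -0.077, 0.221 and 0.023, and those of unlike-numbered ones ran from -0.265 to 0.225. These values gave no sign that the numbers pair the libraries, but with 3 libraries per genotype they cannot exclude it. The replicate block gave 0 adjusted calls among all genes and among the transporters, with 4 transporters at an unadjusted p under 0.05 and 9 lower. Depth was lowest for Abcb1a and Abcc4, with 68 and 79 counts in Nr2e3-/- replicate 1.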
